A study of Homo sapiens with 12 samples.

Results

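The genes described are 9 members of the interleukin-1 family and its receptors, taken from the deposited count table by symbol: the cytokines IL1A, IL1B, IL33 and IL18, the receptor antagonist IL1RN, and the receptors IL1R1, IL1R2, IL1RAP and IL1RL1. All 9 of these symbols were found among the 51838 genes of the table, all 9 had a count in some library, and 8 passed the filter on low counts, as did 28141 genes in all. IL1RL1 did not pass and is described by its counts. Polyadenylated RNA was sequenced from HCC70 cells and MDA-MB-231 cells, established human breast cancer lines that the labels call basal-like, after 4 h in 100 nM dexamethasone, a synthetic glucocorticoid, or in the same volume of ethanol as vehicle. There were 3 libraries in each of the 4 groups: HCC70 with dexamethasone, HCC70 with vehicle, MDA-MB-231 with dexamethasone and MDA-MB-231 with vehicle. Neither line carries an introduced allele according to the labels. Culture medium was RPMI for HCC70 and DMEM for MDA-MB-231, both with serum; a difference between the lines and a difference between their media cannot be told apart. The study's stated purpose was to find genes regulated by the glucocorticoid receptor and STAT3.

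Interleukin-1α and interleukin-1β, made from IL1A and IL1B, bind IL1R1, which then takes up the shared partner IL1RAP and signals through MYD88 and the IRAK kinases to NF-κB and the MAP kinases. IL1RN makes an antagonist that occupies IL1R1 without bringing in IL1RAP, and IL1R2 is a decoy that binds the ligands but has no signalling domain. IL-33 signals through IL1RL1 (ST2) with the same partner IL1RAP, and IL-18 through its own receptor pair, with IL18BP as a soluble inhibitor. Glucocorticoids are known as inhibitors of inflammatory gene expression.

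Total counts were 106345287 to 123218973 per library. Levels are given as CPM, counts per 1e6 reads counted, scaled by TMM factors, and 3 counts over a group, the limit that a count of 0 allows, came to 0.00782 to 0.00898 CPM. Intervals and limits cover counting error only. The glucocorticoid-responsive genes FKBP5, TSC22D3 and PER1 rose in both lines (adjusted p of 3.87e-05 or lower), 6.20-, 2.70- and 7.33-fold in HCC70 and 19.9-, 28.9- and 14.9-fold in MDA-MB-231. Of 8 basal markers, 7 or 8 were above 1 CPM in the HCC70 groups and 4 or 5 in the MDA-MB-231 groups. Of 8 luminal markers, 7 were above 1 CPM in both HCC70 groups, ESR1, GATA3 and FOXA1 among them, and 5 in both MDA-MB-231 groups. Of 6 mesenchymal markers, 2 were above 1 CPM in both HCC70 groups and 5 in both MDA-MB-231 groups. The leukocyte genes PTPRC, CD3E and LYZ averaged under 0.1 CPM in both HCC70 groups. The 9 leukocyte markers summed to 43.9 to 50.7 CPM with dexamethasone and 38.7 to 41.8 CPM with vehicle there, mostly CD14 and CSF1R. CSF1R rose (log2 fold change 0.52, adjusted p = 0.0352) and CD14 did not pass (0.235). In MDA-MB-231 the 9 markers summed to 5.4 to 7.24 CPM with dexamethasone and 7.37 to 10.8 CPM with vehicle. PTPRC averaged 0.187 and 0.186 CPM in these groups, and CSF1R fell (-0.65, adjusted p = 0.00227). ITGAM varied widely between libraries. It had 105, 69 and 11 counts in HCC70 with dexamethasone and 281, 9 and 13 with vehicle. In MDA-MB-231 it had 330, 14 and 10 counts with dexamethasone and 302, 182 and 2 with vehicle. The part of these markers in the results was not tested. The SD over genes of the deviation from the group mean (log2 CPM) was 0.14, 0.181 and 0.101 in MDA-MB-231 dexamethasone libraries 1, 2 and 3. In MDA-MB-231 vehicle libraries 1, 2 and 3 it was 0.194, 0.105 and 0.167. Dexamethasone library 2 and vehicle library 1 had the largest value of their groups, and vehicle library 3 was not far below the latter. In HCC70 the deviation of each library from the mean of the line correlated with the GC content of genes, with Spearman's rho of 0.523, 0.404 and 0.384 in the dexamethasone libraries and -0.624, -0.333 and -0.163 in the vehicle libraries (13642 genes, a description). In MDA-MB-231 it was -0.536, 0.28 and -0.521 with dexamethasone and 0.701, 0.174 and -0.249 with vehicle.

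With dexamethasone, the signalling receptor IL1R1 rose 4.52-fold and its partner IL1RAP fell 1.77-fold in MDA-MB-231. In HCC70 the single member that passed was the alarmin cytokine IL33, which fell 2.29-fold. Of the 8 members tested, 1 fell in HCC70 (12.5%), where 3.96% of all tested genes passed, 2.55% higher and 1.4% lower. In MDA-MB-231, 1 member rose and 1 fell (25%), where 14.6% of all tested genes passed, 6.65% higher and 7.96% lower. The members were chosen with earlier results of these data known, so these shares are descriptions. The median log2 fold change of the tested members was 0.178 in HCC70 and 0.419 in MDA-MB-231, beside -0.0105 and -0.0103 over all tested genes. The MDA-MB-231 median takes in IL33, which had 5 counts in that line; over the 7 members with at least 30 counts there it was 0.408. Calls are edgeR quasi-likelihood tests with a Benjamini-Hochberg adjusted p under 0.05 over all 28141 genes. The labels do not say whether the 3 libraries of a group came from separate cultures, so the p-values measure the spread between these libraries, which may be technical.

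**Figure D1:**
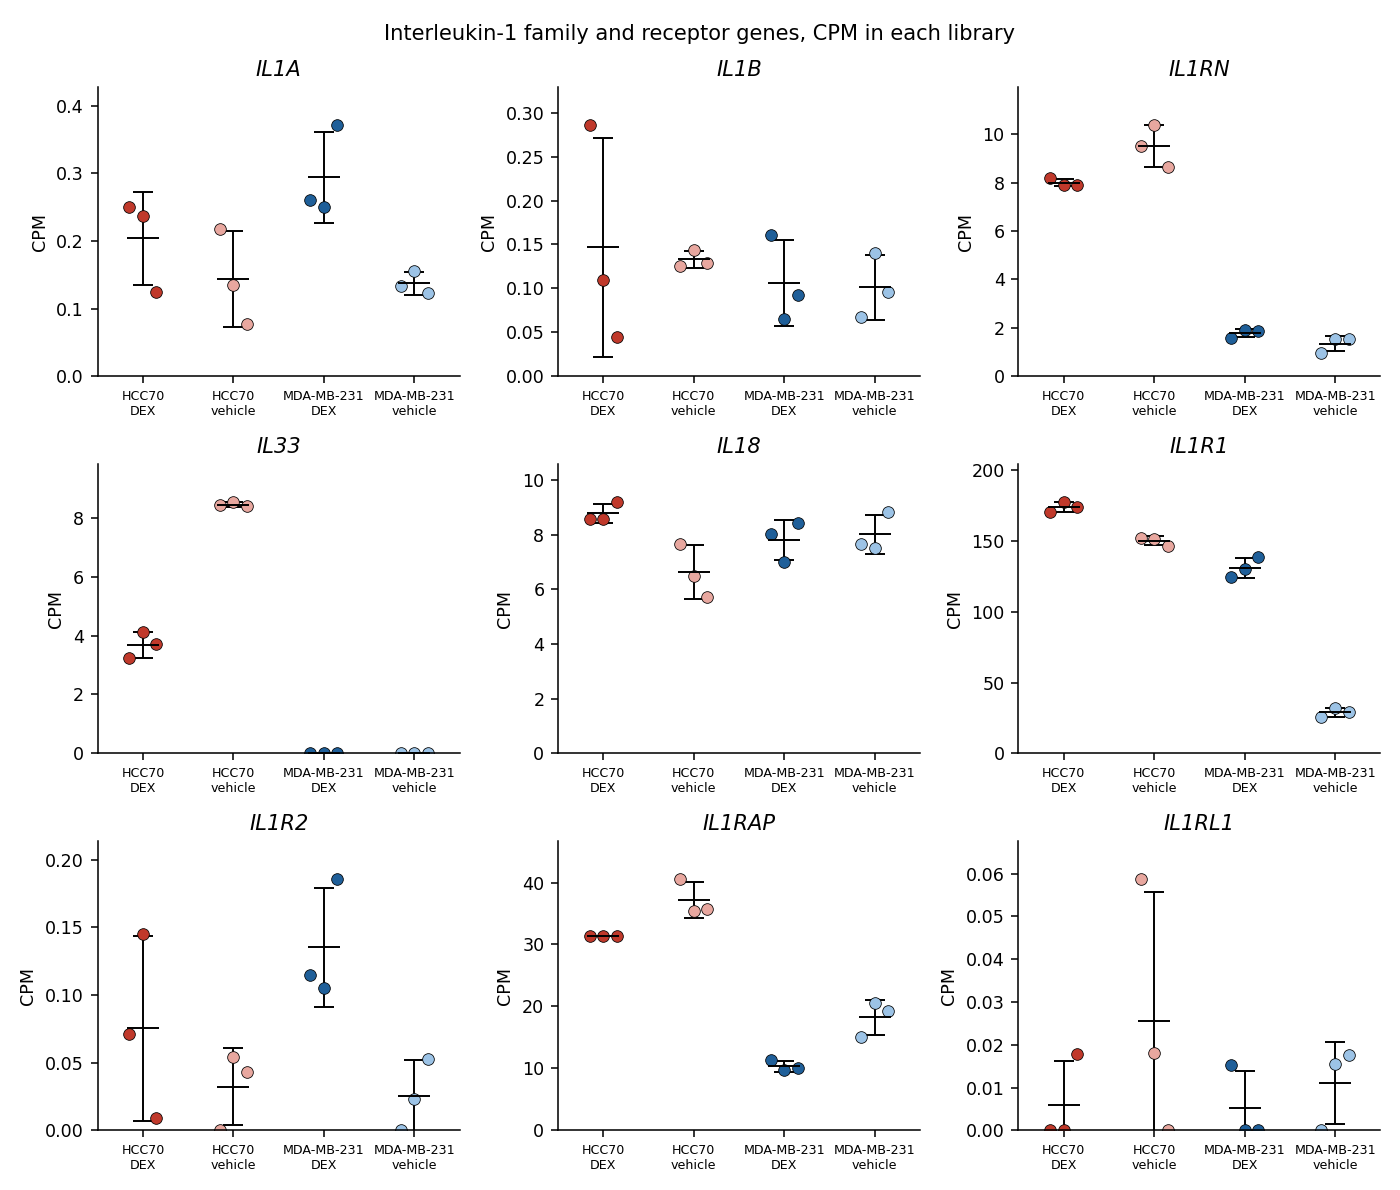
Level of each of the 9 genes in CPM (vertical axis, linear, from 0) in every library of the 4 groups; points are libraries, the long bar is the group mean and the whiskers are ± SD (n = 3), not drawn below 0. In MDA-MB-231 the IL1R1 points lie at 125 to 139 CPM with dexamethasone and 25.7 to 32.1 CPM with vehicle, and in HCC70 the IL33 points lie at 3.24 to 4.12 CPM with dexamethasone and 8.4 to 8.54 CPM with vehicle.

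IL1R1 (ENSG00000115594.7, chromosome 2) had the highest level per kilobase of annotated exon of the 9 genes in all 4 groups. In MDA-MB-231 it stood at 125, 130 and 139 CPM with dexamethasone, against 25.7, 32.1 and 29.3 CPM with vehicle. The groups lay far apart, and the fitted change was a log2 fold change of 2.18 ± 0.0773 (SE; adjusted p = 2.16e-10). In HCC70 it stood at 171, 178 and 174 CPM with dexamethasone, against 152, 152 and 146 CPM with vehicle. The HCC70 groups did not overlap either, but the log2 fold change of 0.21 ± 0.0737 did not pass (adjusted p = 0.139). It passed in 6 of 24 alternative settings, among them HCC70 fitted alone (adjusted p = 0.00312), a correction for GC content (0.00824) and the fit without MDA-MB-231 vehicle library 1 (0.0357). The responses of the lines differed by -1.96 ± 0.106 on the log2 scale, HCC70 minus MDA-MB-231 (adjusted p = 4.87e-08). After dexamethasone IL1R1 averaged 174 ± 3.51 CPM in HCC70 and 131 ± 7.06 CPM in MDA-MB-231, and with vehicle 150 ± 3.22 CPM in HCC70 and 29.04 ± 3.25 CPM in MDA-MB-231 (SD, n = 3 each). In bulk RNA, more cells that express a gene and more RNA per cell cannot be told apart.

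IL1RAP (ENSG00000196083.5, chromosome 3), the partner that both IL1R1 and IL1RL1 need to signal, went the other way. In MDA-MB-231 it stood at 11.3, 9.70 and 9.99 CPM with dexamethasone, against 15.1, 20.5 and 19.2 CPM with vehicle. All 3 treated libraries were below all 3 vehicle libraries, with a log2 fold change of -0.82 ± 0.102 (adjusted p = 6.47e-05). In HCC70 it stood at 31.4, 31.4 and 31.3 CPM with dexamethasone, against 40.6, 35.4 and 35.8 CPM with vehicle. These groups did not overlap, and the log2 fold change of -0.25 ± 0.0988 did not pass (adjusted p = 0.207), though it did with HCC70 fitted alone (0.00465). The responses differed by 0.58 ± 0.141 on the log2 scale, HCC70 minus MDA-MB-231 (adjusted p = 0.0198). That call was lost without HCC70 dexamethasone library 1 (adjusted p = 0.0561), HCC70 vehicle library 2 (0.0562) or MDA-MB-231 dexamethasone library 3 (0.056), and with scaling by library size alone (0.0643). Exons of another annotated gene overlap 4.63% of the IL1RAP exon length, and 0.155% of that of IL1R1 lies against an antisense gene. The libraries carry no strand.

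In MDA-MB-231 the 2 chains moved in opposite directions, which shows in their ratio within each library, taken per kilobase of exon. IL1R1 over IL1RAP was 18, 21.9 and 22.7 in the MDA-MB-231 dexamethasone libraries, against 2.77, 2.55 and 2.49 in the vehicle libraries. In HCC70 the ratio was 8.88, 9.23 and 9.07 with dexamethasone, against 6.12, 7.01 and 6.68 with vehicle. In both lines the treated libraries lay above the vehicle libraries. MDA-MB-231 had the highest ratios of the 4 groups with dexamethasone and the lowest with vehicle. The ratio is built from the same counts as the results for each gene and was given no test. Its size depends on the annotated exon lengths of the 2 genes, which are the same for every library.

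**Figure D2:**
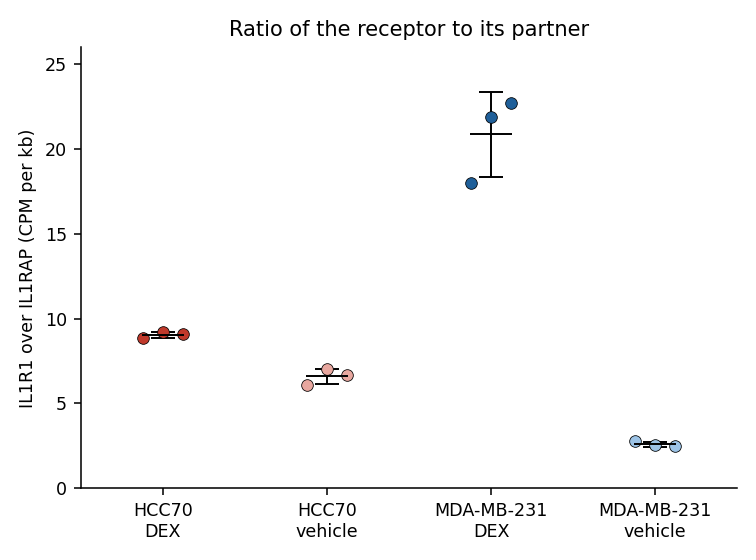
Ratio of IL1R1 to IL1RAP in CPM per kilobase of exon (vertical axis, linear, from 0) in each library of the 4 groups; points are libraries, bars are means and whiskers ± SD (n = 3). The MDA-MB-231 dexamethasone libraries lie at 18 to 22.7 and the MDA-MB-231 vehicle libraries at 2.49 to 2.77.

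Promoter sequence is shown for the 3 members that passed a dexamethasone test, since the glucocorticoid receptor acts through DNA. The windows are 250 bases before to 50 bases after an annotated start, from RefSeq on GRCh38.p14. IL1R1 has 4 such windows, IL33 has 2 and IL1RAP has 1. The counts per gene do not tell which start was used. Both strands were searched for the glucocorticoid receptor palindrome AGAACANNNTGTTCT, for the shorter AGAACA alone, its left arm, and for an NF-κB form GGGNNNTTCC. Capitals mark a match.
IL1R1 window 2, chr2:102141541-102141840, plus strand: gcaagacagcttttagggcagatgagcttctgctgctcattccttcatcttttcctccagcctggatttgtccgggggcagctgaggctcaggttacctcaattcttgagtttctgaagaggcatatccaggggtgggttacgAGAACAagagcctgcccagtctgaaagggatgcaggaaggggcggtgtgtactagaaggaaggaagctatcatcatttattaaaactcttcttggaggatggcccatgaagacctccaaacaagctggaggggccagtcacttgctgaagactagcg
IL1R1 window 4, chr2:102142496-102142795, plus strand: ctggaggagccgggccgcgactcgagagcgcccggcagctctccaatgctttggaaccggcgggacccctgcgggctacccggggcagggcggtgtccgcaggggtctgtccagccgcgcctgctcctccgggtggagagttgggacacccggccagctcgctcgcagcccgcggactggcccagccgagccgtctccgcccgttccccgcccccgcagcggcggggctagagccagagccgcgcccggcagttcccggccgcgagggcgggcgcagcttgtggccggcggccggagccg
IL1RAP window 1, chr3:190513835-190514134, plus strand: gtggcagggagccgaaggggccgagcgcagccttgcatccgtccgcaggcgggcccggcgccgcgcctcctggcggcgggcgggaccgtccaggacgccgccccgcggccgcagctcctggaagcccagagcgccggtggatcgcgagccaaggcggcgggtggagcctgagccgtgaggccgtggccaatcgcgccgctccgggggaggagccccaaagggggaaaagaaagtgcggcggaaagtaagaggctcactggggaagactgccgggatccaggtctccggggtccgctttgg
IL33 window 2, chr9:6215557-6215856, plus strand: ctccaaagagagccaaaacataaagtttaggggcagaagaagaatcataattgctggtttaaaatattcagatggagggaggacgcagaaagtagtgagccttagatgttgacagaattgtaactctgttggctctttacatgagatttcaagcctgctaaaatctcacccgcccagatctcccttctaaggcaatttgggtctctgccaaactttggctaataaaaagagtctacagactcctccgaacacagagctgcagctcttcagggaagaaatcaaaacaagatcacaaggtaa
IL1R1 window 2 holds AGAACA once, 107 bases before the start; the other windows of these 3 genes hold none of the 3 motifs. AGAACA occurs in 14.8% of all 35116 promoter windows of 300 bases, the NF-κB form in 6.52% and the palindrome in 0.00285%. A match describes letters and is not evidence of binding. IL1R1 window 4 and the IL1RAP window are rich in G and C (77.7% and 73.7%), and IL33 window 2 is not (42.3%). IL1R1 windows 1, 2 and 3 are at 52.7%, 51.0% and 44.3%, and IL33 window 1 is at 39.0%, so the comparison depends on the window. The sequences of IL1R1 windows 1 and 3 and of IL33 window 1 are not printed. Among the other members, IL1RN holds the NF-κB form in 2 of 3 windows, 12 bases after and 97 bases before the start. Whether these windows overlap and share a single site was not checked.

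IL1R2 (ENSG00000115590.9), the decoy receptor and next to IL1R1 on chromosome 2, was near the limit of detection. In MDA-MB-231 it had 15, 13 and 24 counts with dexamethasone, against 0, 3 and 6 counts with vehicle. All treated libraries were above all vehicle libraries. The ratio of scaled counts was 5.45 (exact 95% interval 2.66 to 12.6, counting error only), and the log2 fold change of 2.39 ± 0.881 did not pass (adjusted p = 0.0872; 0.0363 to 0.246 over 23 alternatives, under 0.05 in 1). In HCC70 the counts were 8, 16 and 1 with dexamethasone, against 0, 6 and 5 with vehicle, and the groups overlapped (log2 fold change 1.21 ± 0.938; adjusted p = 0.522). Per kilobase of exon, IL1R2 averaged 0.044 CPM in treated MDA-MB-231 cells, where IL1R1 averaged 18.5 CPM.

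IL1RL1 (ENSG00000115602.12), the IL-33 receptor, had at most 7 counts in any library. It had 0, 0 and 2 counts in HCC70 with dexamethasone, against 7, 2 and 0 with vehicle. In MDA-MB-231 it had 2, 0 and 0 counts with dexamethasone, against 0, 2 and 2 with vehicle. The ratio of scaled counts was 0.231 in HCC70 (0.0243 to 1.11) and 0.471 in MDA-MB-231 (0.0426 to 3.29), so no change was detectable at this depth. Its exons share 95 bases with the neighbouring IL18R1.

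IL33 (ENSG00000137033.7, chromosome 9) makes a nuclear cytokine released from damaged epithelial cells. In HCC70 it stood at 3.24, 4.12 and 3.73 CPM with dexamethasone, against 8.43, 8.54 and 8.4 CPM with vehicle. The highest treated library was well below the lowest vehicle library. The log2 fold change was -1.20 ± 0.159 (adjusted p = 0.000505), and it was -1.28 to -1.11 with an adjusted p of at most 0.00536 over all 24 alternatives. In MDA-MB-231 the gene had 3, 0 and 0 counts with dexamethasone and 0, 2 and 0 with vehicle. With so few counts the difference between the responses was not detectable (log2 difference -1.63 ± 1.38; adjusted p = 0.466).

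IL18 (ENSG00000150782.7, chromosome 11) makes a cytokine that caspase-1 activates. In HCC70 it stood at 8.57, 8.59 and 9.21 CPM with dexamethasone, against 7.68, 6.51 and 5.73 CPM with vehicle. The groups did not overlap, and the log2 fold change of 0.40 ± 0.11 just missed the threshold (adjusted p = 0.0597). It passed in 12 of 24 alternatives, including HCC70 fitted alone (0.00574) and the GC correction (0.00374). It also passed without HCC70 vehicle library 1 (0.0291), MDA-MB-231 dexamethasone library 2 (0.0375), or MDA-MB-231 vehicle library 1 (0.0442) or 3 (0.0411). In MDA-MB-231 it stood at 8.02, 7.01 and 8.45 CPM with dexamethasone, against 7.67, 7.52 and 8.85 CPM with vehicle, and the groups overlapped (log2 fold change -0.03; adjusted p = 0.878). The responses differed by 0.44 ± 0.155 on the log2 scale, HCC70 minus MDA-MB-231, which did not pass (adjusted p = 0.0778) but did without HCC70 vehicle library 1 (0.0437).

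The classical ligands were barely detected. IL1A (ENSG00000115008.5) had 34, 31 and 48 counts in MDA-MB-231 with dexamethasone, against 16, 20 and 14 with vehicle. The treated libraries were all higher, 0.294 ± 0.0673 CPM against 0.138 ± 0.0171 CPM with vehicle (SD, n = 3). The ratio of scaled counts was 2.13 (1.51 to 3.04), and the log2 fold change of 1.09 ± 0.355 just missed the threshold (adjusted p = 0.0557). It passed without MDA-MB-231 dexamethasone library 2 (0.038), HCC70 dexamethasone library 3 (0.0493), or HCC70 vehicle library 1 (0.0436) or 3 (0.0403), and its adjusted p ran from 0.0365 to 0.208 over 23 alternatives. In HCC70 IL1A had 28, 26 and 14 counts with dexamethasone, against 26, 15 and 9 with vehicle, and the groups overlapped (log2 fold change 0.50 ± 0.374; adjusted p = 0.505). IL1B (ENSG00000125538.7) had 5 to 32 counts in HCC70 with dexamethasone and 15 or 16 with vehicle. In MDA-MB-231 it had 8 to 21 counts with dexamethasone and 8 to 18 with vehicle. Its groups overlapped in both lines, and the ratios of scaled counts were 1.11 in HCC70 (0.724 to 1.69) and 1.04 in MDA-MB-231 (0.654 to 1.68).

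IL1RN (ENSG00000136689.14, chromosome 2), the receptor antagonist, lay on opposite sides of vehicle in the 2 lines. In HCC70 it stood at 8.20, 7.91 and 7.92 CPM with dexamethasone, against 9.54, 10.4 and 8.66 CPM with vehicle. In MDA-MB-231 it stood at 1.58, 1.91 and 1.87 CPM with dexamethasone, against 0.979, 1.52 and 1.53 CPM with vehicle. The groups did not overlap in either line. Neither change passed on its own, with a log2 fold change of -0.25 ± 0.129 in HCC70 (adjusted p = 0.32) and 0.41 ± 0.15 in MDA-MB-231 (0.0857; 0.0434 without MDA-MB-231 vehicle library 3). The difference of the responses did pass, at -0.66 ± 0.198 on the log2 scale, HCC70 minus MDA-MB-231 (adjusted p = 0.0458). That call was lost in 11 of 22 alternatives. Leaving out any of HCC70 dexamethasone libraries 1, 2 and 3, HCC70 vehicle libraries 1 and 2, MDA-MB-231 dexamethasone libraries 1 and 3 and MDA-MB-231 vehicle library 1 lost it, with adjusted p of 0.0507 to 0.108. Over all tested genes 12.1% passed for the difference, 6.96% positive and 5.09% negative, and 3 of the 8 members did (IL1RAP positive, IL1R1 and IL1RN negative).

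**Figure D3:**
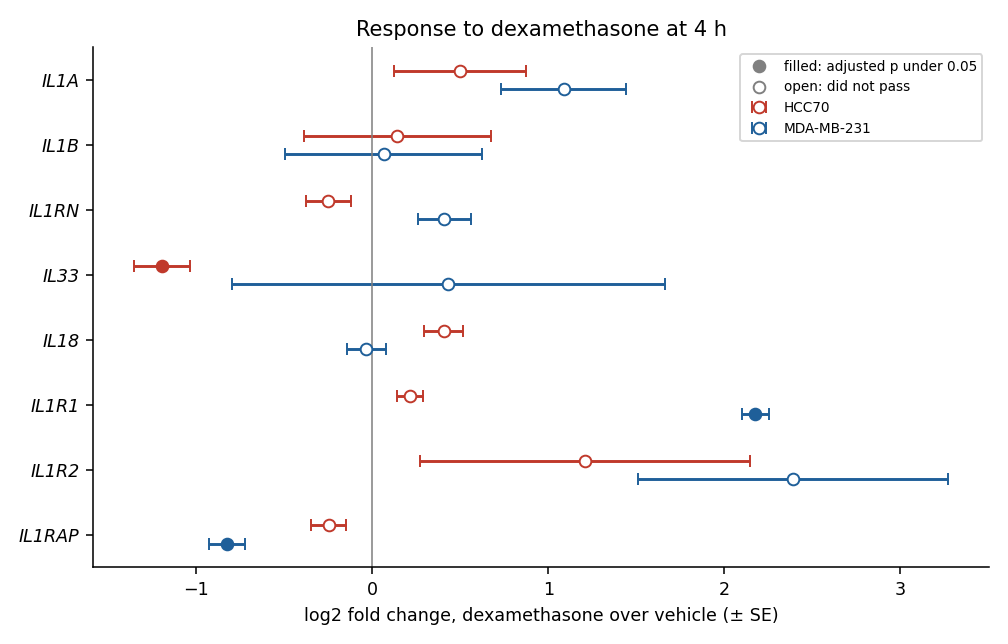
Log2 fold change of dexamethasone over vehicle (horizontal axis, ± SE) for the 8 members tested, HCC70 in red above MDA-MB-231 in blue; filled points passed at an adjusted p under 0.05. The filled points are IL33 in HCC70 at -1.20 and, in MDA-MB-231, IL1R1 at 2.18 and IL1RAP at -0.82; the widest bars belong to IL33 in MDA-MB-231 and to IL1R2, genes with few counts.

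The lines differed in these genes before any treatment. With vehicle, IL33, IL1RN, IL1R1 and IL1RAP were higher in HCC70 than in MDA-MB-231 and IL18 was lower, so 5 of 8 members passed (62.5%), 4 higher and 1 lower, with a median log2 fold change of 0.702 beside -0.0269 over all tested genes. Of all tested genes 79.2% passed in that comparison, 39.2% higher and 40% lower in HCC70. IL33 had 2932 counts over the HCC70 vehicle libraries and 2 over the MDA-MB-231 vehicle libraries, a ratio of scaled counts of 1530 (423 to 12600). IL1RN averaged 9.53 ± 0.866 CPM in HCC70 and 1.34 ± 0.317 CPM in MDA-MB-231, 7.08-fold higher (SD, n = 3 each; adjusted p = 2.17e-10). IL1R1 was 5.17-fold higher in HCC70 (adjusted p = 1.46e-12). IL1RAP averaged 37.2 ± 2.90 CPM in HCC70 and 18.3 ± 2.83 CPM in MDA-MB-231, 2.04-fold higher (adjusted p = 2.91e-07). IL18 averaged 6.64 ± 0.981 CPM in HCC70 and 8.02 ± 0.73 CPM in MDA-MB-231, 1.21-fold lower with overlapping libraries (adjusted p = 0.0356). Without HCC70 vehicle library 2 (0.0872) or 3 (0.169), or MDA-MB-231 vehicle library 3 (0.132), IL18 did not pass, nor with the GC correction (0.0794), also with a replicate block (0.0869) or with the vehicle libraries fitted alone (0.122). IL1A, IL1B and IL1R2 did not pass, with ratios of scaled counts, HCC70 over MDA-MB-231, of 1.04 (0.691 to 1.58), 1.3 (0.823 to 2.06) and 1.28 (0.48 to 3.48).

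To compare genes, levels were set per kilobase over all annotated exons of a gene, 7083 bases for IL1R1, 2628 for IL18 and 11558 for IL1RAP. The length of the transcripts present in these cells was not measured, so the order of genes depends on the annotated lengths. On that scale IL1R1 led in every group. In HCC70 with dexamethasone the order after IL1R1 (24.6 CPM per kb) was IL18 (3.35), IL1RAP (2.71), IL1RN (2.46) and IL33 (1.14). In HCC70 with vehicle it was IL1RAP (3.22), IL1RN (2.93), IL33 (2.60) and IL18 (2.53) behind IL1R1 (21.2). In MDA-MB-231 with dexamethasone IL18 (2.98), IL1RAP (0.893) and IL1RN (0.548) followed IL1R1 (18.5). In MDA-MB-231 with vehicle IL1R1 itself was at 4.10, IL18 at 3.05, IL1RAP at 1.58 and IL1RN at 0.413. IL1A, IL1B and IL1R2 stayed between 0.00824 and 0.139 CPM per kb in all groups, and IL1RL1 at or under 0.00445. In HCC70 with vehicle the libraries of IL1RAP overlapped those of IL1RN, and the libraries of IL18 overlapped those of IL33 and of IL1RN. In the other 3 groups the libraries of neighbours in these orders did not overlap.

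**Figure D4:**
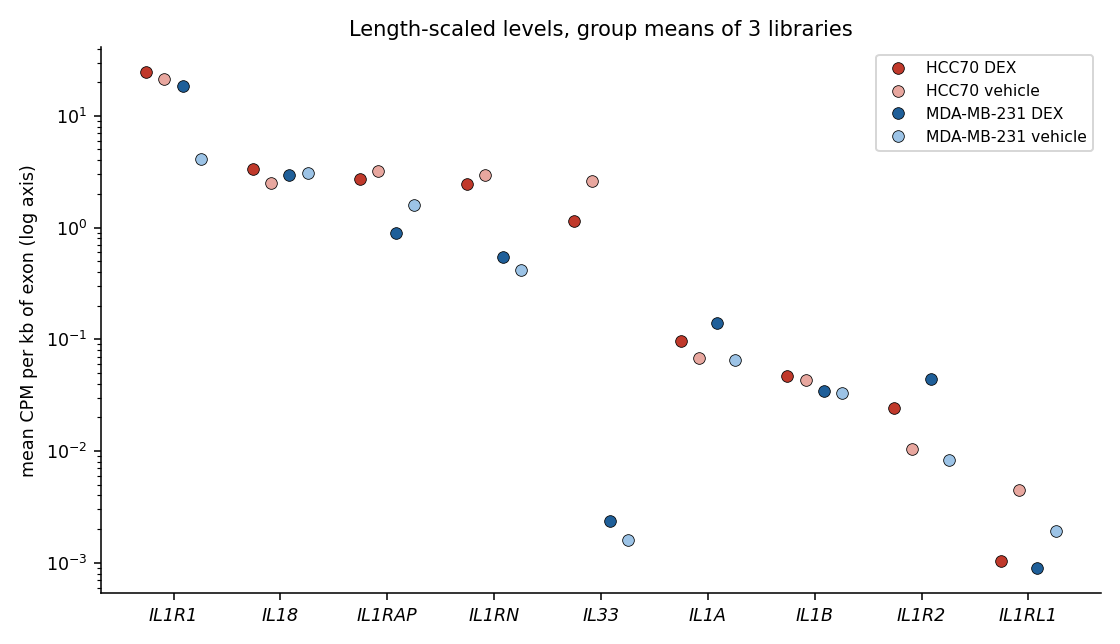
Group mean of 3 libraries in CPM per kilobase of exon (vertical axis, logarithmic) for each of the 9 genes, ordered by the level in HCC70 with dexamethasone; colours give the 4 groups. IL1R1 is highest in all groups, from 4.10 in MDA-MB-231 with vehicle to 24.6 in HCC70 with dexamethasone, and IL33 is near detection in MDA-MB-231.

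IL1R1 sits in a row of receptor genes on chromosome 2, in the order IL1R2, IL1R1, IL1RL2, IL1RL1, IL18R1 and IL18RAP, all on the plus strand. IL1RL2, the IL-36 receptor, stood at 1.88, 1.83 and 1.71 CPM in MDA-MB-231 with dexamethasone, against 0.778, 0.828 and 1.31 CPM with vehicle. It rose there 1.86-fold (log2 fold change 0.90 ± 0.158; adjusted p = 0.00149). In HCC70 it averaged 6.31 ± 0.239 CPM with dexamethasone and 4.51 ± 0.28 CPM with vehicle (SD, n = 3 each), a log2 fold change of 0.48 that did not pass (adjusted p = 0.074). It passed in 8 of the alternatives, among them HCC70 fitted alone (0.000593), DESeq2 (0.0141), the GC correction (0.0226) and the fits without MDA-MB-231 vehicle library 1 (0.0282) or 3 (0.00527). IL18R1, the IL-18 receptor, had 56 counts over the HCC70 dexamethasone libraries and 37 over the HCC70 vehicle libraries, and 2 and 13 over those of MDA-MB-231 with dexamethasone and with vehicle. IL18RAP had none, which in each group allows up to the limit given above. The cytokine genes IL36A, IL36B, IL36G, IL36RN, IL37 and IL1F10, which lie between IL1B and IL1RN, had 21 counts or fewer in every group.

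The gene lists here and below were chosen with earlier results of these data known. The share of each list that passed is a description. Of 13 further family genes, 5 were tested. In MDA-MB-231 1 rose and 2 fell (60%, against 14.6% of all genes), with a median log2 fold change of -0.86, or -0.51 over the 4 with at least 30 counts in that line. SIGIRR, an inhibitory receptor of the family, stood at 5.54, 6.28 and 5.39 CPM in MDA-MB-231 with dexamethasone, against 12.4, 12.3 and 10.0 CPM with vehicle. It fell 2.02-fold there (adjusted p = 4.93e-06). Its log2 fold change of -1.01 was -0.49 (adjusted p = 0.0917) with MDA-MB-231 fitted alone and corrected for GC content. IL1RAPL1, a neuronal relative of IL1RAP, fell 1.81-fold, to 5.91 ± 0.748 CPM with dexamethasone against 10.7 ± 1.66 CPM with vehicle (SD, n = 3 each; adjusted p = 0.00234), and had 0 and 2 counts in HCC70 with dexamethasone and with vehicle. IL18BP, which neutralises IL-18, was among the more abundant, at 48.0 ± 3.60 CPM with dexamethasone and 53.8 ± 3.45 CPM with vehicle in MDA-MB-231, and did not pass (adjusted p = 0.108; 0.036 without dexamethasone library 2); exons of an opposite-strand gene overlap 15.6% of its length. In HCC70 none of the 5 passed in edgeR, and 1 had an unadjusted p under 0.05. In DESeq2 1 passed, where 1601 of all genes did (1114 in the edgeR fit reported). With vehicle, IL1RL2, SIGIRR and IL18BP were higher in HCC70 (4.65-, 2.82- and 1.27-fold) and IL1RAPL1 was lower.

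Of 23 genes of receptor signalling, 1 rose and 5 fell in MDA-MB-231 (26.1%, against 14.6% of all genes; median log2 fold change -0.169). Of the 23, 9 passed in DESeq2 and 9 with the GC correction, where 4932 and 5160 of all genes did (4110 in the fit reported). Without MDA-MB-231 dexamethasone library 2 and vehicle library 1, 11 passed, where 5785 of all genes did. With the line fitted alone 3 passed, where 2116 of all genes did. IRAK3, the inhibitory IRAK, stood at 4.46, 4.27 and 5.33 CPM with dexamethasone, against 1.16, 1.27 and 1.75 CPM with vehicle. It rose 3.36-fold (log2 fold change 1.75 ± 0.19; adjusted p = 1.88e-05), with the groups well apart. IRAK2, which carries the signal on, fell 1.68-fold to 8.65 ± 0.215 CPM, against 14.5 ± 1.25 CPM with vehicle (SD, n = 3 each; adjusted p = 0.0144). That call was lost without MDA-MB-231 dexamethasone library 1 (0.0538) or 3 (0.0558) or vehicle library 2 (0.0525). MAP2K3, a p38 kinase kinase, fell 1.75-fold (adjusted p = 3.16e-07) and MAP3K8, an ERK pathway kinase, 1.36-fold (0.00527). In HCC70 1 of the 23 passed, IKBKB, an IκB kinase (4.35%, near the 3.96% of all genes; median log2 fold change -0.0394), 1.17-fold higher (adjusted p = 0.0385). Of the 23, DESeq2 called 2 there, where it called 1601 of all genes (1114 in the fit reported). Without MDA-MB-231 dexamethasone library 2 and vehicle library 1, 7 passed, where 3867 of all genes did. With HCC70 fitted alone 10 passed, where 4828 of all genes did. The IKBKB call was lost in 13 alternatives. Among them were the fits without any single HCC70 library (adjusted p of 0.0737 to 0.178). Others were those without MDA-MB-231 dexamethasone library 1 (0.0514) or 3 (0.0552) or vehicle library 2 (0.053). MYD88, the adaptor of the receptor, did not pass in either line (adjusted p = 0.56 in HCC70 and 0.0616 in MDA-MB-231). With vehicle 20 of the 23 differed between the lines (87%, where 79.2% of all genes did), 8 higher and 12 lower in HCC70. IRAK2 was 28.3-fold lower in HCC70, IRAK3 23.7-fold lower and TAB3, an adaptor of the kinase TAK1, 3.59-fold lower. PELI2 and PELI1, IRAK ubiquitin ligases, were 26.2- and 5.55-fold higher, and MAP3K8 was 11.3-fold higher.

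Of 18 genes for processing and release of the cytokines, 17 were tested. In MDA-MB-231 3 fell (17.6%, near the 14.6% of all genes), with a median log2 fold change of -0.099. Without MDA-MB-231 dexamethasone library 2 and vehicle library 1, 7 of the 17 passed, where 5785 of all genes did (4110 in the fit reported). With the line fitted alone 1 passed, where 2116 of all genes did. NLRP1, an inflammasome sensor, fell 1.4-fold to 18.2 ± 1.36 CPM, against 25.5 ± 0.35 CPM with vehicle (SD, n = 3 each; adjusted p = 9.92e-05). GSDMD, the pore-forming gasdermin, fell 1.35-fold (adjusted p = 0.0195). With the GC correction its log2 fold change was -0.02 (adjusted p = 0.907), and its call was lost without MDA-MB-231 dexamethasone library 1 (0.0875) or 3 (0.0922) or vehicle library 1 (0.0552). In HCC70 none of the 17 passed in the edgeR fit of all libraries (median log2 fold change -0.112), and 4 had an unadjusted p under 0.05. In DESeq2 1 of them passed, where 1601 of all genes did (1114 in the fit reported). With HCC70 fitted alone 5 passed, where 4828 of all genes did. CASP1, the protease that activates IL-1β and IL-18, was 62.5-fold higher in HCC70 than in MDA-MB-231 with vehicle, 29.8 ± 2.04 against 0.482 ± 0.311 CPM (SD, n = 3 each; adjusted p = 1.95e-09). The inflammatory caspase CASP4 was 4.08-fold and the DNA sensor AIM2 3.76-fold higher, and CARD8 and CAPN2 were 2.73- and 1.51-fold lower in HCC70; 12 of the 17 were higher and 4 lower, 94.1% where 79.2% of all genes differed. The dexamethasone response of CASP1 in MDA-MB-231 depended on 1 library: the log2 fold change was 0.42 (adjusted p = 0.426), and 1.07 (0.000568) without vehicle library 3.

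Genes known to be induced by interleukin-1 moved in both directions. Their list was chosen with earlier results of these data known. The share that passed is therefore a description and not a test of enrichment. Of 26 such genes 24 were tested. In MDA-MB-231 10 rose and 7 fell (70.8%, against 14.6% of all genes), with a median log2 fold change of 0.164. In HCC70 3 rose and 2, TNFAIP3 and IL6, fell (20.8%, against 3.96% of all genes). CSF2, CSF3 and MMP1 are among the 24 but had 0 counts in every HCC70 library, which puts the median over the 24 at 0. Over the 18 with at least 30 counts in that line, a minimum chosen after the values were seen, 3 rose and 1 fell (22.2%, against 4.21% of all genes with as many counts), with a median log2 fold change of 0.0459. NFKBIA, which makes the NF-κB inhibitor IκBα, rose in both lines. It stood at 99.4, 106.5 and 105 CPM in MDA-MB-231 with dexamethasone, against 49.6, 42.1 and 40.1 CPM with vehicle (adjusted p = 2.88e-08). In HCC70 it stood at 104, 104 and 105 CPM with dexamethasone, against 54.4, 54.2 and 56.1 CPM with vehicle (adjusted p = 3.24e-06), and neither line had overlapping groups. BIRC3, a ubiquitin ligase of the same pathway, rose 10.3-fold in MDA-MB-231 and 4.27-fold in HCC70 (adjusted p = 2.51e-12 and 3.25e-09). TNFAIP3, the deubiquitinase A20, rose in MDA-MB-231 (log2 fold change 0.80; adjusted p = 3.94e-05). It fell in HCC70 (-0.40; 0.0484), a call lost without HCC70 dexamethasone library 2 (0.2) or 3 (0.152), any single HCC70 vehicle library (0.112 to 0.138), or MDA-MB-231 dexamethasone library 1 (0.051) or 3 (0.0709) or vehicle library 2 (0.0598).

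Among mediators on the list, PTGS2 and CXCL2 rose and LIF and ICAM1 fell in MDA-MB-231. PTGS2, cyclooxygenase-2, stood at 3.70, 3.34 and 4.49 CPM with dexamethasone, against 0.569, 0.851 and 0.517 CPM with vehicle, and rose 5.91-fold (adjusted p = 4.84e-08). CXCL2, a neutrophil chemokine, rose 5.05-fold (adjusted p = 9.89e-07). LIF, a cytokine that signals through STAT3, fell 2.04-fold to 17.4 ± 2.34 CPM, against 35.6 ± 2.94 CPM with vehicle (SD, n = 3 each; adjusted p = 4.56e-06), and ICAM1, an adhesion molecule, fell 1.69-fold (7.87e-06), with antisense exons over 23.6% of its length. IL6 and CSF3 lie below the level set for naming genes and are given here after their values were seen. Their calls were not followed over the alternatives. IL6 stood at 1.09, 1.31 and 1.04 CPM with dexamethasone, against 2.21, 2.19 and 2.15 CPM with vehicle. It fell (log2 fold change -0.93 ± 0.199, adjusted p = 0.00616), with exons of opposite-strand genes over 20.7% of its length. CSF3 had 959 counts with dexamethasone and 81 with vehicle, and rose 11.1-fold (adjusted p = 3.03e-06). In HCC70 IL6 also fell (log2 fold change -3.99 ± 0.871, adjusted p = 0.0194). It was near the limit of detection there, with 1 count over the dexamethasone libraries and 22 over the vehicle libraries. PTGES, a prostaglandin synthase, rose 1.20-fold in HCC70 (adjusted p = 0.0456) and fell 1.21-fold in MDA-MB-231 (0.0156). The HCC70 call was lost in 15 alternatives, among them the fits without any single HCC70 library (adjusted p of 0.0989 to 0.192), MDA-MB-231 dexamethasone library 1 (0.0582) or 3 (0.07) or vehicle library 2 (0.0617). The MDA-MB-231 call was lost without dexamethasone library 1 (0.0575) or vehicle library 1 (0.0673), and with the GC correction (0.0886). Between the lines in vehicle, 13 of the 24 were higher and 9 lower in HCC70, 91.7% where 79.2% of all genes differed. LCN2, an iron-binding lipocalin, was 87.8-fold and PTGS2 21.2-fold higher in HCC70, and LIF was 12.8-fold and BIRC3 2.86-fold lower. Summed over the 3 vehicle libraries of each line, the chemokine CXCL5 had 665 counts in HCC70 and 2 in MDA-MB-231, and the collagenase MMP1 had 0 counts in HCC70 and 1275 in MDA-MB-231.

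**Figure D5:**
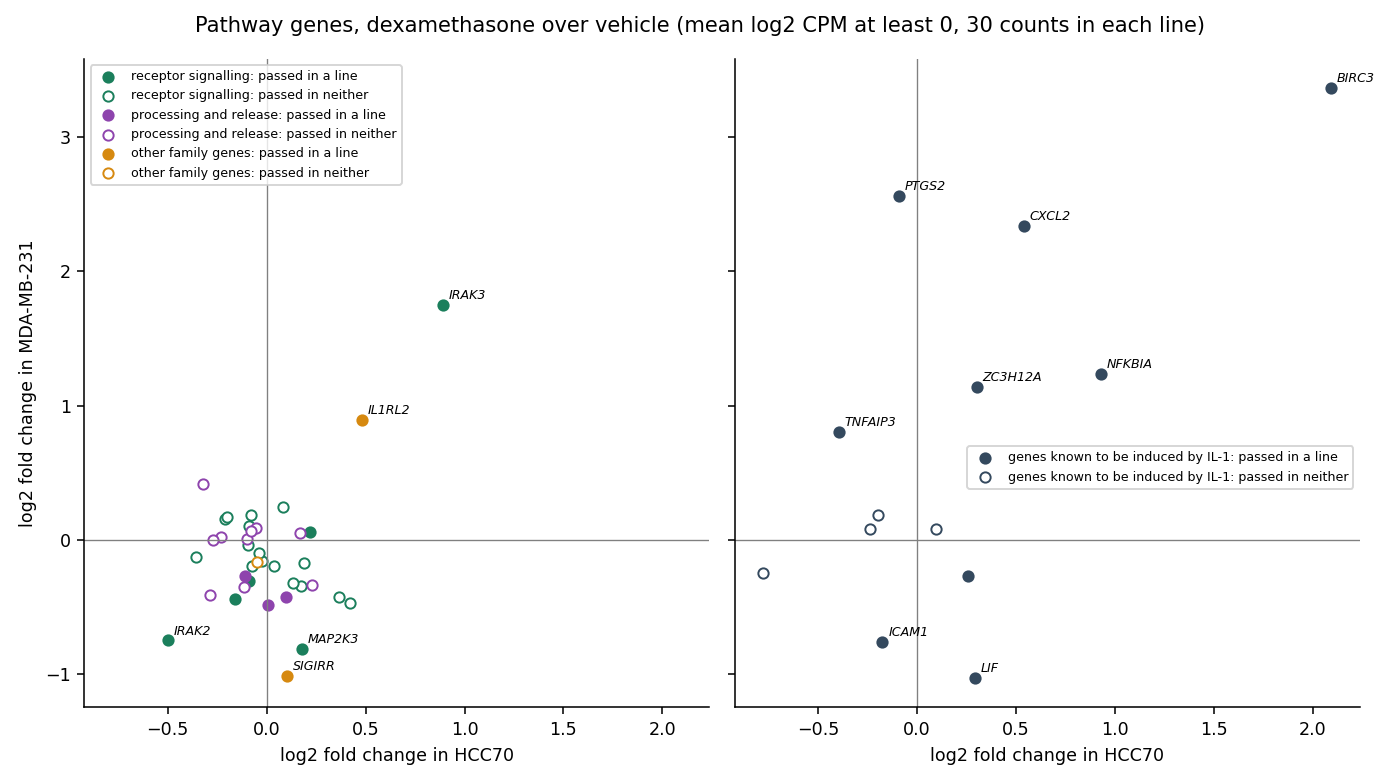
Log2 fold change of dexamethasone over vehicle in HCC70 (horizontal axis) against that in MDA-MB-231 (vertical axis) for pathway genes whose mean log2 CPM is 0 or more and that have at least 30 counts in each line; the left panel has 22 signalling, 13 processing and 3 other family genes, the right panel 13 genes known to be induced by interleukin-1. Filled points passed in at least 1 line; IRAK3 at 1.75 in MDA-MB-231 stands above the left cloud, and BIRC3 is at 2.09 in HCC70 and 3.36 in MDA-MB-231.

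Across the 12 libraries, with the mean of each line removed, the levels most like that of IL1R1 were NPR3 (r = 0.997), the natriuretic peptide clearance receptor, and FGD4 (r = 0.996), among the 15384 genes whose mean log2 CPM was 1 or more. Their log2 fold changes were 0.53 and 0.51 in HCC70 and 3.92 and 4.47 in MDA-MB-231. Close to IL1RAP was GALNT3 (r = 0.997), a glycosyltransferase, with a log2 fold change of -0.54 in MDA-MB-231. IL33 was closest to RAB23 (0.929) and QKI (0.925), IL1RN to LYRM7 (0.954) and NCOA6 (0.938), and IL18 to PRDM4 (0.913) and ROR1 (0.909). In HCC70 the log2 fold changes of RAB23 and QKI were -0.19 and -0.1, against -1.20 for IL33. Those of LYRM7 and NCOA6 were -0.12 and -0.08 (IL1RN -0.25), and those of PRDM4 and ROR1 0.21 and 0.39 (IL18 0.40). In MDA-MB-231 IL33 had only 3 counts with dexamethasone and 2 with vehicle. The genes compared share libraries, treatment and GC trend, so the correlations are descriptions with no test.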

How the data were processed

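Counts per gene were deposited for 12 libraries of polyadenylated RNA, made with a transposase-based kit that does not mark strand and read as pairs of 50 bases, per the labels' protocols. The table holds the authors' whole-number read counts, not normalized. TopHat 1.4.1, Cufflinks 1.3.0, bedtools and hg19 appear in the submitters' processing notes; the counting step is not given in the sources used here. Total counts per library were 106345287 to 123218973. All 12 columns matched a sample title.

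Genes were filtered with filterByExpr (minimum count 10) and scaled by TMM in edgeR 4.0.16 (R 4.3.3). A robust quasi-likelihood fit with 4 group means covered the 12 libraries (8 residual degrees of freedom). Its two-sided tests compared treatment with vehicle within HCC70 and within MDA-MB-231, the 2 responses with each other, and the lines in vehicle, with Benjamini-Hochberg adjustment over 28141 genes and a threshold of 0.05. The standard error is the size of the log2 fold change over the root of F. The script was run on simulated data with the same spread for every gene and no GC trend. These libraries differ from that, so the run does not cover their noise. CPM use TMM-scaled library sizes. Ratios of counts have exact 95% intervals from the summed counts. Exon lengths, GC content and overlaps come from GENCODE v29 (GRCh38), another build than hg19; GC values were found for 25272 tested genes (89.8%). Alternatives were other scalings and filters, DESeq2 1.42.0, lines fitted alone, a replicate term, a GC correction and left-out libraries.

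The 9 members and all gene lists were chosen with earlier results of these data known. From each list the text names up to 3 genes per direction and comparison, the largest changes among those that passed, whose mean log2 CPM was 0 or more and whose groups do not overlap. Promoter windows were matched by symbol for 8 of the 9 members. Some genes that this rule or the correlations name are not reported here. Protein sequences and the IL18 promoter were not analysed here.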

Additional observations from a re-analysis of the deposited data

Results flagged for a closer look

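The response to dexamethasone differed between HCC70 and MDA-MB-231 by a test of the difference itself in 3 members, IL1R1 (-1.96 on the log2 scale, HCC70 minus MDA-MB-231; adjusted p = 4.87e-08), IL1RAP (0.58; 0.0198) and IL1RN (-0.66; 0.0458). For IL1R1 both lines had higher treated than vehicle libraries, and for IL1RN the lines lay on opposite sides.

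Among the pathway genes, the difference was also past the threshold for SIGIRR (1.12), MAP2K3 (0.99), NLRP1 (0.49), GSDMD (0.52), LIF (1.32), PTGES (0.53) and ICAM1 (0.58), all positive, and for CXCL2 (-1.80), PTGS2 (-2.66), TNFAIP3 (-1.20) and BIRC3 (-1.27). With the GC correction the SIGIRR difference was 0.23 (adjusted p = 0.468) and the GSDMD difference -0.18 (0.213). The glucocorticoid-responsive genes FKBP5 (-1.68), TSC22D3 (-3.42) and PER1 (-1.02) differed in the same direction as IL1R1. The PER1 difference (adjusted p = 0.0451) was lost without any HCC70 library, MDA-MB-231 dexamethasone library 3 or MDA-MB-231 vehicle library 2 or 3 (adjusted p of 0.0566 to 0.092). The GSDMD difference (adjusted p = 0.0441) was lost without any HCC70 dexamethasone library, HCC70 vehicle library 1 or 2, MDA-MB-231 dexamethasone library 1 or 3, or MDA-MB-231 vehicle library 1 or 2 (0.0592 to 0.116).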

How the results depend on the processing

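IL33 in HCC70 and IL1R1 and IL1RAP in MDA-MB-231 kept their direction and call in all 24 alternatives (log2 fold changes of -1.28 to -1.11, 2.10 to 2.25 and -0.94 to -0.73), as did IL33, IL1RN, IL1R1 and IL1RAP between the lines in vehicle. In HCC70, 1114 genes and 1 member passed. Fitted alone, HCC70 gave 4828 genes and 5 members; with the GC correction 1834 and 3; with both, an alternative added after seeing the data, 4123 and 5. Without MDA-MB-231 vehicle library 1 and dexamethasone library 2, 3867 genes and 4 members passed in HCC70, and 6206 genes for the difference of the responses (3391 in the fit reported). No filter, the filter of 5 CPM in 3 libraries and DESeq2 each gave 2 members in HCC70, with 1040, 1172 and 1601 genes. The GC correction with a replicate block gave 3 members and 1375 genes. In MDA-MB-231 (4110 genes, 2 members) the line fitted alone gave 2116 genes and 3 members. The GC correction gave 5160 genes and 2 members. With both, the alternative added after seeing the data, it was 3700 genes and 4 members. The filter of 5 CPM left 11980 calls between the lines in vehicle (22294 in the fit reported). It tests fewer genes than the 28141 of the fit reported, so these counts are not over the same genes. Leaving out 1 library gave 510 to 610 genes in HCC70 without a HCC70 dexamethasone library or HCC70 vehicle library 1 or 2, and 1775 without MDA-MB-231 vehicle library 1. In MDA-MB-231 it gave 2424, 6452 and 2463 without dexamethasone libraries 1, 2 and 3, and 2990, 2993 and 5762 without vehicle libraries 1, 2 and 3. For the difference it gave 1614 to 2144 without those HCC70 libraries or MDA-MB-231 dexamethasone library 1 or 3, 6259 without dexamethasone library 2 and 5789 without vehicle library 3. In vehicle it gave 21711 to 22757. Members called were 1 to 3 in HCC70 (2 without HCC70 vehicle library 1, MDA-MB-231 dexamethasone library 2 or vehicle library 3, and 3 without MDA-MB-231 vehicle library 1), 2 to 3 in MDA-MB-231, 1 to 3 for the difference (1 without HCC70 dexamethasone library 1, HCC70 vehicle library 2 or MDA-MB-231 dexamethasone library 3) and 4 to 5 in vehicle. With the lines fitted alone the difference of the responses could not be fitted. Replicate numbers are shared by the labels. Deviations of same-numbered libraries from their group means correlated with r of -0.233, 0.118 and 0.011 in HCC70 and -0.634, -0.261 and 0.33 in MDA-MB-231. Between unlike numbers r ran from -0.24 to 0.214 in HCC70 and from -0.661 to 0.712 in MDA-MB-231. The libraries also carry GC trends, so these values cannot tell whether replicates were paired. The numbers were not taken as pairs. A replicate block gave 695 genes in HCC70, 2995 in MDA-MB-231, 2059 for the difference and 22010 in vehicle, with 1, 2, 2 and 5 members. Directions turned with the GC correction: with HCC70 fitted alone and GC-corrected, SIGIRR was at -0.257 and GSDMD at -0.188 in HCC70 and both passed (0.102 and 0.097, neither passing, in the fit reported). The GSDMD difference was -0.176, or -0.174 with a replicate block, and no longer passed (adjusted p = 0.213 and 0.288; 0.525 in the fit reported). Scaling by library size alone moved the median log2 fold change of all genes to -0.098 in HCC70. Why the counts moved was not tested. Depth limits IL1A, IL1B, IL1R2 and IL1RL1 in all groups and IL33 in MDA-MB-231.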
